A study of Mus musculus with 32 samples.

Results

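Major histocompatibility complex (MHC) class I molecules present short peptides from the cytosol to CD8+ T cells. The proteasome cuts the peptides, and in cells exposed to inflammatory signals the inducible core subunits encoded by Psmb8 and Psmb9 can replace their constitutive counterparts. The transporter formed by TAP1 and TAP2 carries the peptides into the endoplasmic reticulum, where tapasin, encoded by Tapbp, bridges it to the heavy chain paired with beta-2-microglobulin. NLRC5 is a transactivator of class I genes. Class I genes are known targets of interferon and NF-kappaB signalling, and lipopolysaccharide (LPS), a bacterial cell wall component, activates NF-kappaB and type I interferon responses in microglia through Toll-like receptor 4.

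The genes described are 10 of the 45706 gene rows in the series, chosen by name: the classical heavy chain genes H2-K1 and H2-D1, the nonclassical heavy chain gene H2-M2, B2m, Tap1, Tap2, Tapbp, Psmb8, Psmb9 and Nlrc5. All 10 were found, each as a single row. They were measured by total RNA sequencing in 32 libraries of BV-2, an immortalised mouse microglial line that the labels call wild type and a glioblastoma line. The cells received a microRNA (miRNA) mimic (of miR-146a-5p, miR-7a-5p or miR-29a-3p) or a scramble control, and either vehicle (VEH) or LPS at 10 ng/ml for 24 h, giving 8 groups of 4 libraries. The labels place the LPS before the transfection and the study's methods describe the transfection first, so the order is given here as unsettled. All groups come from a single line grown in culture, all were transfected, and no untransfected group was analysed here.

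The 14 microglia and macrophage markers were all detected, with a summed level of 3222 to 6350.0 CPM (counts scaled to a common library size) per library, whereas the 6 astrocyte and glioma markers were each below 1 CPM in every library. Summed levels reached at most 2.03 CPM for 4 neuronal markers, 2.16 CPM for 3 T cell markers, 0.286 CPM for 3 B cell markers, 3.34 CPM for 3 endothelial markers and 17.3 CPM for 4 oligodendrocyte markers, of which Mog and Mag stayed below 1 CPM. Library totals ran from 1545430 to 20828500 estimated counts. VEH miR-7a libraries 2, 3 and 4 stood apart, with 49.9 to 50.6% of their counts in small structural RNA genes against 2.64 to 18.8% in the other 29 libraries. In bulk RNA, a smaller share of expressing cells and less RNA per cell cannot be told apart.

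The mature miRNAs that the mimics copy are shown first, because the comparison of mimic with scramble turns on them. RefSeq (GRCm38.p6) places miR-7a-5p at chr7:78888295-78888317 (plus strand, Mir7-2) and chr13:58392841-58392863 (minus strand, Mir7-1), miR-29a-3p at chr6:31062673-31062694 (minus strand) and miR-146a-5p at chr11:43374435-43374456 (minus strand). Capitals mark the seed, bases 2 to 8, and the 3 seeds differ from each other.
miR-7a-5p: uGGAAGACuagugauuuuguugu
miR-29a-3p: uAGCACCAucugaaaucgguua
miR-146a-5p: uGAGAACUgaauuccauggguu

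Perfect matches to these 7-base seeds were sought in the longest annotated 3′UTR (3′ untranslated region) of each gene in GENCODE M21. The only matches to the miR-7a-5p seed and to the miR-146a-5p seed lay in H2-K1, H2-D1 and Tapbp, and no member held a miR-29a-3p match. For comparison, of 20983 genes with a 3′UTR, 11.1% held a match to the miR-146a-5p seed, 11.8% to that of miR-7a-5p and 13.04% to that of miR-29a-3p. H2-K1 had both a miR-7a-5p match, starting at base 184 of its 455-base 3′UTR, and a miR-146a-5p match at base 72. H2-D1 had the same miR-146a-5p match at base 72 of 629, and Tapbp had one at base 4 of 1141. The sites are printed 5′ to 3′ with their flanks, seed matches in capitals, and none has an A opposite base 1 of the miRNA. They lie at chr17:33996282-33996288 and chr17:33996394-33996400 for H2-K1 (minus strand), chr17:35266942-35266948 for H2-D1 (plus strand) and chr17:33928155-33928161 for Tapbp (plus strand), all GRCm38. A match is a description of letters and not evidence of a functional site.
H2-K1, miR-7a-5p match: ctgcactgctctGTCTTCCcttccacagcc
H2-K1, miR-146a-5p match: tccagagccctcAGTTCTCtttagtcaagt
H2-D1, miR-146a-5p match: tccagagccctcAGTTCTCtttacacaaca
Tapbp, miR-146a-5p match: agaAGTTCTCgtctgtggaagccaccctca

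Promoters of 4 members are shown because H2-K1, H2-M2, B2m and Tap1 differed in their levels and in their calls with LPS. Each line holds 250 bases before to 50 bases after the RefSeq start (GRCm38.p6), read on the gene's own strand, and capitals mark matches on either strand to CCAAT, to TGACG (the core of a site bound by CREB family factors), to GAAANNGAA (the core of an interferon-stimulated response element), to GGGNNTTCC (a core of the NF-kappaB site) and to TTCNNNGAA (a STAT site). Of 32851 promoters of the same length, 37.4% held CCAAT, 20.8% TGACG, 8.56% GAAANNGAA, 5.82% GGGNNTTCC and 8.30% TTCNNNGAA. H2-K1 and H2-D1 shared the layout of 1 NF-kappaB core, 1 TGACG and 2 CCAAT matches. H2-M2 held 2 NF-kappaB cores, starting 179 and 165 bases before its start, whereas the B2m promoter held the only GAAANNGAA match and the Psmb8 promoter the only TTCNNNGAA match among members in the table. H2-K1 has 2 promoters in the table, of which one is shown. Tap2 and Nlrc5 were not in the promoter table. The shown windows are chr17:34000284-34000583 for H2-K1 (minus strand), chr17:37483505-37483804 for H2-M2 (minus strand), chr2:122147437-122147736 for B2m (plus strand) and chr17:34187306-34187605 for Tap1 (plus strand). No match says only that these letters are absent from the window, as variant forms of the sites were not sought.
H2-K1: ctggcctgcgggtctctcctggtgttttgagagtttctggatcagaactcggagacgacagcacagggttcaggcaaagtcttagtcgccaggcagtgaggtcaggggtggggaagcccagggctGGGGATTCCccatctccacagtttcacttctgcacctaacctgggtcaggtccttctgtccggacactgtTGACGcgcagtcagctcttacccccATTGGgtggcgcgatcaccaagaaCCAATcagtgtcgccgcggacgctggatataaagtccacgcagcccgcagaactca
H2-M2: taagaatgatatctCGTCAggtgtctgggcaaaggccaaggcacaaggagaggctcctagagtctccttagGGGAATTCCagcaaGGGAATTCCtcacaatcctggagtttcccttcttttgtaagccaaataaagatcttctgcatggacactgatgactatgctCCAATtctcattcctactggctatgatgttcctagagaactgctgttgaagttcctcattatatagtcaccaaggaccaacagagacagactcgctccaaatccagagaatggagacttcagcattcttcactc
B2m: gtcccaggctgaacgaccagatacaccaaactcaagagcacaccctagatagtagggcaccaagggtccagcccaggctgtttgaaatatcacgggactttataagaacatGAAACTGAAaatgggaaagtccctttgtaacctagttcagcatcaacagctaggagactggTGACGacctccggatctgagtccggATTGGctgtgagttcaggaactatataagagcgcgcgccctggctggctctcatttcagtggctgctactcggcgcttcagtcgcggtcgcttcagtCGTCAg
Tap1: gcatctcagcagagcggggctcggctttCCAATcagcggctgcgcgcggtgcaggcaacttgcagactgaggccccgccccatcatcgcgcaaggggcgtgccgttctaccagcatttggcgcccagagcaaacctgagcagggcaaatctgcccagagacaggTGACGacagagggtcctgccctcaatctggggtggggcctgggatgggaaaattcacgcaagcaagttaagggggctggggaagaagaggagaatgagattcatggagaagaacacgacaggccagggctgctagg

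On chromosome 17 (GRCm38, GENCODE M21), the minus-strand Psmb9 and the plus-strand Tap1 overlap by 212 bases at their starts, Tap1 ends 495 bases before Psmb8, and Psmb8 ends 2072 bases before Tap2. Nlrc5 lies on chromosome 8 (94434356 to 94527272) and B2m on chromosome 2 (122147686 to 122153083). Exons of Psmb8, Tap2, Tapbp and Nlrc5 also overlap those of other genes on the opposite strand, and Tapbp those of Zbtb22 on its own strand. H2-K1 and H2-D1 are closely related to each other and to other class I genes, so the split of their reads is uncertain.

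Levels between genes were compared per kilobase of exon. In the LPS scramble libraries B2m had the highest level, at 1674 ± 860 CPM per kilobase (mean ± SD, n = 4), followed by H2-D1 at 359 ± 40.8 and H2-K1 at 242 ± 18.6. The loading and processing genes were lower, with Tapbp at 59.2 ± 6.06, Psmb8 at 40.5 ± 3.28, Tap1 at 30.1 ± 4.72, Nlrc5 at 13.8 ± 0.918, Psmb9 at 11.1 ± 0.992 and Tap2 at 6.95 ± 0.906 CPM per kilobase. H2-M2 was lowest at 0.896 ± 0.0421. Hereafter levels are CPM, with library sizes scaled by the trimmed mean of M values (TMM), and are compared only within a gene.

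**Figure D1:**
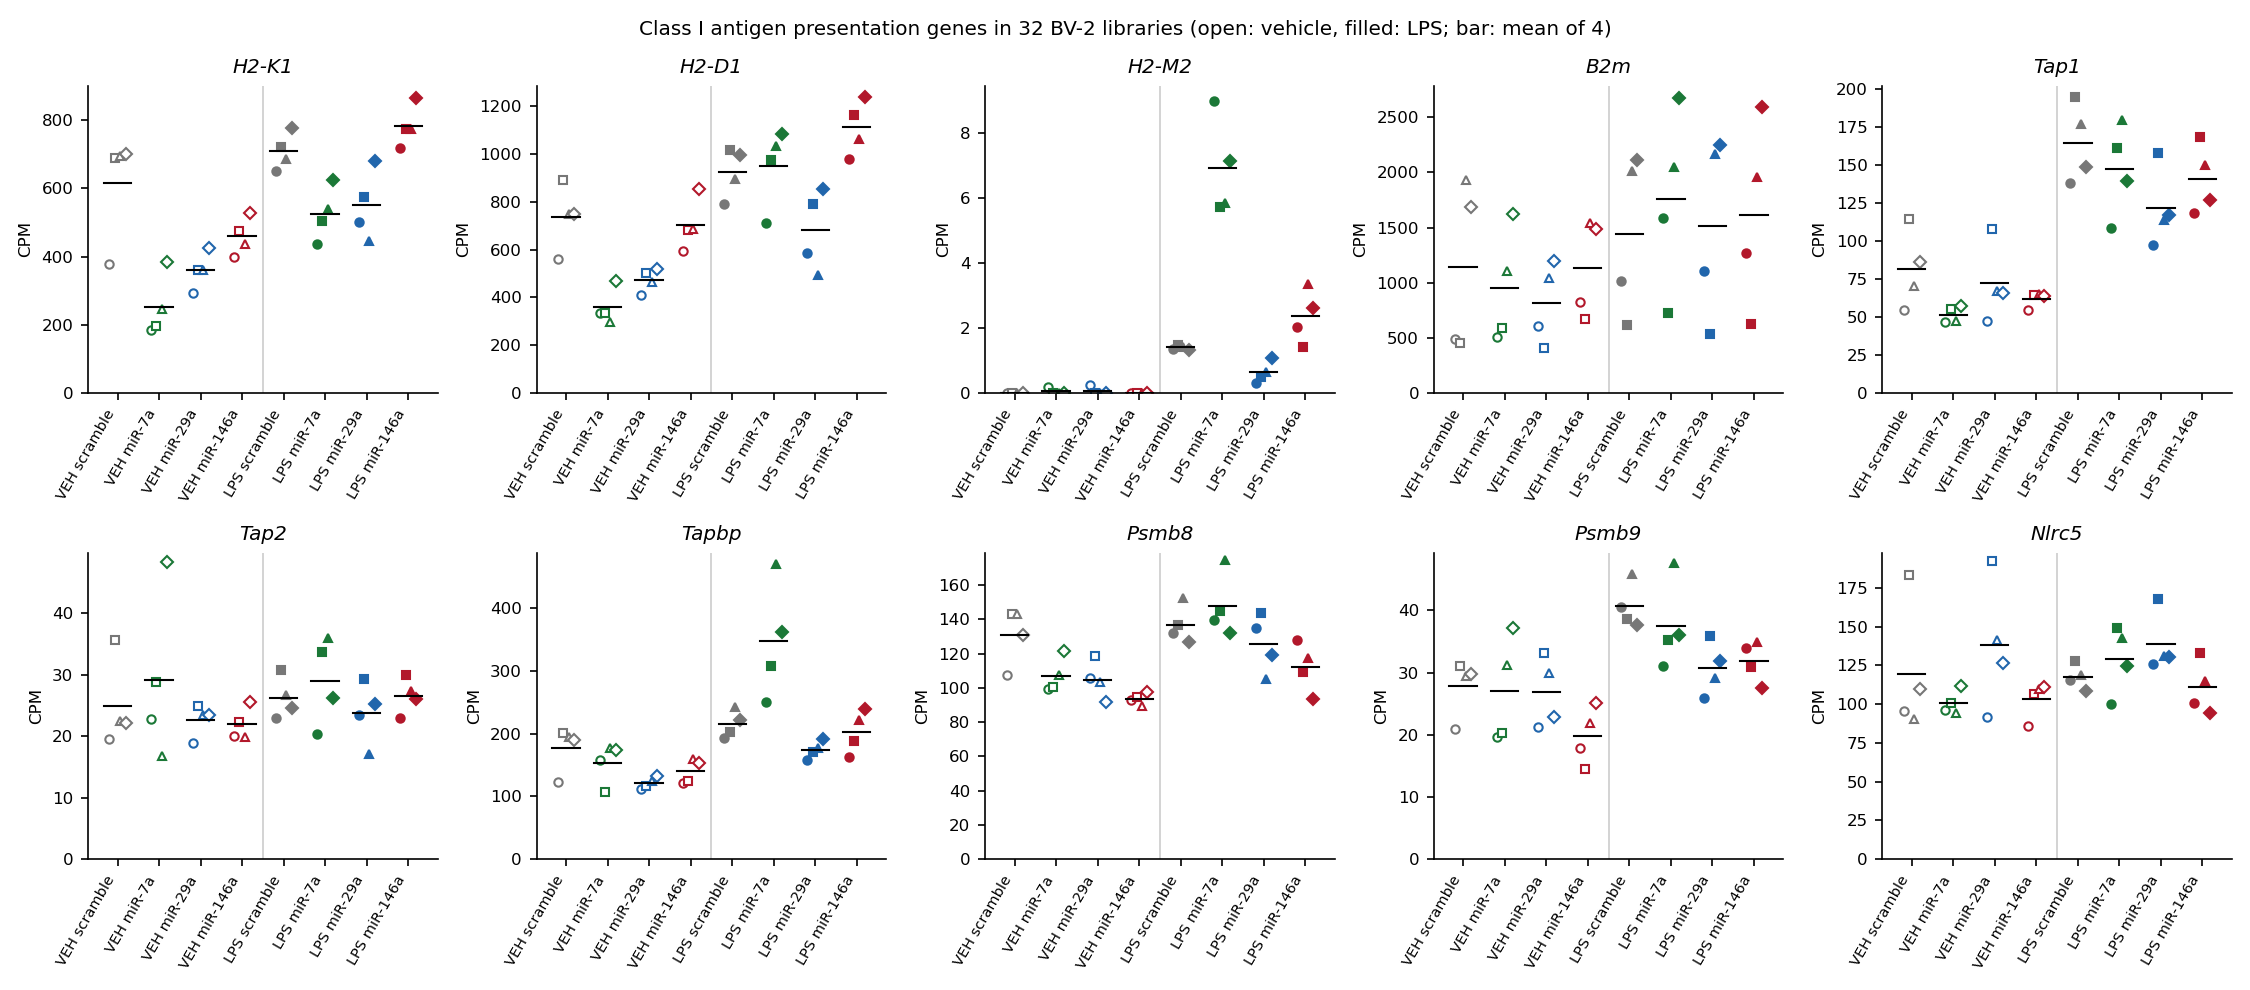
CPM of each gene (vertical axes, linear from 0) in the 4 libraries of each group. Open symbols are vehicle, filled symbols LPS, bars the group means, and circle, square, triangle and diamond are replicates 1 to 4. H2-M2 was at or near 0 in vehicle and between 5.71 and 8.98 CPM in LPS miR-7a.

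The comparison of LPS with vehicle within each mimic asks how the presentation genes respond to the inflammatory stimulus. Tap1 was upregulated by LPS in all 4 backgrounds. H2-M2 had counts in every LPS library, though few in miR-29a, and was nearly absent from vehicle. H2-K1 was upregulated in the 3 mimic backgrounds and not in scramble, although that difference between backgrounds did not itself pass a test. H2-M2 entered the test through the LPS libraries alone, where it is high, so the members are counted without it. In the scramble background 2 of the 9 others were called higher (Tap1 and Psmb9), where 9.38% of all 12404 genes tested were called higher. With miR-7a, 4 of 9 were called higher (H2-K1, H2-D1, Tap1 and Tapbp) beside 2.76% of all genes. With miR-29a, 3 of 9 were called higher (H2-K1, Tap1 and Tapbp) beside 13.4%, and with miR-146a 3 of 9 (H2-K1, H2-D1 and Tap1) beside 2.83%. No member was called lower with LPS in any background. The median log2 fold change of these 9 was 0.29, 0.90, 0.50 and 0.50 in the scramble, miR-7a, miR-29a and miR-146a backgrounds, beside medians over all genes between -0.02 and 0.02. These calls are from limma-voom with Benjamini-Hochberg adjustment over all genes, at an adjusted p under 0.05.

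H2-M2, a class I heavy chain gene of the H2-M region, had no count in any VEH scramble or VEH miR-146a library and 1 count each in VEH miR-7a replicate 1 and VEH miR-29a replicate 1. With LPS and scramble it was at 1.35, 1.47, 1.41 and 1.32 CPM in replicates 1 to 4. With LPS it reached 8.98, 5.71, 5.84 and 7.13 CPM with miR-7a, 0.304, 0.480, 0.639 and 1.06 CPM with miR-29a, and 2.013, 1.42, 3.34 and 2.60 CPM with miR-146a. All 4 LPS libraries lay above all 4 vehicle libraries in every background. In miR-29a this rests on few counts, since LPS replicate 1, at 0.304 CPM, lay below the 3-count floor of its library (0.456 CPM). VEH miR-29a replicate 1 was at 0.239 CPM. The floor of single vehicle libraries reached 0.922 CPM in miR-29a and 1.72 CPM in miR-146a, above some of the LPS values. Against a floor of 3 counts over the vehicle group, H2-M2 was at least 10.8-fold higher with LPS in scramble and at least 20.4-fold higher in miR-146a. Against the single vehicle count the ratio was 64.7 (95% counting interval 11.5 to 2562) in miR-7a and 14.9 (2.48 to 606) in miR-29a, and these intervals cover counting error only. The bounds against a floor and the ratios to a count are on different bases and are not ranked. No p is given for these ratios, since the filter on low counts passed H2-M2 through its LPS libraries.

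The LPS miR-7a values of H2-M2 rest on how the deposited numbers are read, since the table had lost its decimal marks. They were deposited as 72, 61, 79 and 94 and were taken as whole counts, with posterior probabilities of 0.958, 0.999, 0.998 and 0.9902. The model weighs each gene's level in other libraries and the rarity of a single lost decimal, which 0.487% of the values with lost decimals were given. Read with 1 lost decimal each, as the simple rule does, the same values would place LPS miR-7a below LPS scramble. No other member value differed between the 2 readings.

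Among the classical heavy chains, H2-K1 had 379, 689, 697 and 702 CPM in VEH scramble replicates 1 to 4 and 651, 723, 688 and 779 CPM in LPS scramble. The groups overlapped, replicate 1 of VEH scramble lay far below its group, and the log2 fold change of 0.24 (SE 0.20) had an adjusted p of 0.446. In the miR-7a background H2-K1 rose from 185, 196, 245 and 385 CPM to 437, 503, 540.0 and 625 CPM, by 1.13 (SE 0.20, adjusted p = 0.00698) on the log2 scale. In miR-29a it rose from 291, 362, 361 and 426 CPM to 501, 574, 446 and 680.4 CPM (0.61, SE 0.16, adjusted p = 0.0157). In miR-146a it rose from 397, 476, 436 and 529 CPM to 720.3, 774, 775 and 867 CPM (0.77, SE 0.13, adjusted p = 0.00383). Vehicle and LPS libraries did not overlap in any of the 3 mimic backgrounds. Throughout, non-overlap describes a member's own libraries. The share of all genes without overlap is not given, so non-overlap does not set a member apart from other genes.

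H2-D1, the other classical heavy chain gene, was also lowest in VEH miR-7a and highest in LPS miR-146a. It was at 559, 892, 748 and 751 CPM in VEH scramble and 789.5, 1018, 898 and 998 CPM in LPS scramble (log2 fold change 0.33, SE 0.17, adjusted p = 0.205). With miR-7a it rose from 336, 335, 297 and 467 CPM to 710.1, 977, 1036 and 1085 CPM (1.40, SE 0.17, adjusted p = 0.000729). This was the largest log2 change of a classical heavy chain among the 4 backgrounds. With miR-146a it rose from 594, 684, 685 and 854 CPM to 979.8, 1164, 1066 and 1239 CPM (0.66, SE 0.14, adjusted p = 0.0177), a call lost without VEH miR-146a replicate 3 (adjusted p = 0.0531). With miR-29a the values were 409, 502, 462 and 517 CPM in vehicle and 587, 792, 494 and 856 CPM with LPS, a log2 fold change of 0.50 (SE 0.18) that missed the threshold (adjusted p = 0.0506) and passed with the replicate number as a block (adjusted p = 0.00597).

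B2m encodes the light chain shared by all class I molecules, and its libraries split by replicate number more than by group. In VEH scramble it was at 486, 453, 1929.9 and 1688 CPM in replicates 1 to 4, and in LPS scramble at 1014, 618, 2015 and 2113 CPM. In LPS miR-7a it was at 1586, 726, 2048 and 2672 CPM, and in VEH miR-29a at 603, 401, 1039.6 and 1197 CPM. Replicates 3 and 4 both exceeded replicates 1 and 2 in 8 of 8 groups. Averaged over groups, replicates 3 and 4 lay 1.35 above replicates 1 and 2 on the log2 scale, at the 99.7th percentile of the genes compared, whereas H2-K1 differed by 0.27 and Tap1 by 0.02. B2m has the shortest exon length of the members (860 bases), and genes of at most 2508 bases had a median shift of 0.069 between the same libraries, while 3 equal groups of longer genes had medians between -0.05 and -0.02. What the replicate numbers share was not tested. No LPS comparison called B2m without a block. Its log2 fold changes were 0.46 in scramble, 0.90 in miR-7a, 0.84 in miR-29a and 0.44 in miR-146a, and the adjusted p-values ran from 0.173 to 0.593. With the replicate number as a block, B2m was called higher in scramble (0.51, adjusted p = 0.0466) and in miR-29a (0.80, adjusted p = 0.000485). In both, each same-numbered pair of libraries deviated together (correlation over 0.1), and the block raised the share of all genes called from 17.6% to 24.7% and from 26.5% to 37.4%. In miR-7a, where 2 of 4 pairs passed 0.1, the block also called B2m higher, and the share rose from 6.84% to 14.7%. Of the same-numbered pairs, LPS exceeded vehicle in 4 of 4 in scramble, miR-7a and miR-29a and in 3 of 4 in miR-146a.

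**Figure D2:**
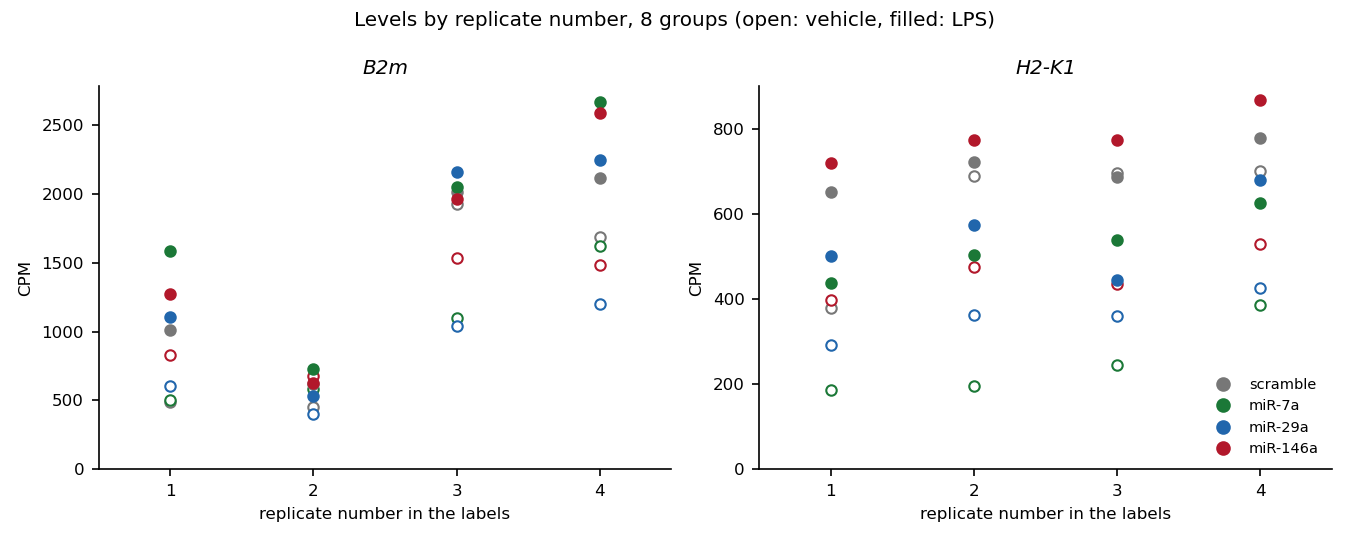
CPM of B2m and H2-K1 (vertical axes, from 0) against the replicate number in the labels, 8 points per number, open for vehicle and filled for LPS. B2m is high in replicates 3 and 4 of all 8 groups, with a log2 shift of 1.35 from replicates 1 and 2, while H2-K1 shifts by 0.27.

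Of the 2 transporter subunits, Tap1 rose with LPS and Tap2 was not called in any background. Tap1 was at 54.7, 115, 70.2 and 86.2 CPM in VEH scramble and at 138, 195, 177 and 149 CPM in LPS scramble, a log2 fold change of 1.07 (SE 0.22, adjusted p = 0.00674). With miR-7a it rose from 46.6, 55.3, 46.9 and 57.0 CPM to 108, 161, 179.7 and 139.6 CPM (1.51, SE 0.20, adjusted p = 0.00111). With miR-146a it rose from 54.6, 64.2, 65.0 and 63.5 CPM to 118, 169, 150.3 and 127 CPM (1.14, SE 0.14, adjusted p = 0.000673). In these 3 backgrounds the LPS and vehicle libraries did not overlap. With miR-29a Tap1 went from 47.2, 108, 67.2 and 66.0 CPM to 97.4, 158, 114 and 117 CPM (0.81, SE 0.22, adjusted p = 0.0167), where the groups overlapped through VEH miR-29a replicate 2 and the call was lost without VEH miR-29a replicate 3 (adjusted p = 0.053). Tap2 ranged from 16.8 to 48.3 CPM over all 32 libraries, and its log2 fold changes with LPS were 0.16, 0.21, 0.03 and 0.25, with 95% intervals reaching at most 0.82.

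The different behaviour of the 2 transporter genes showed in their ratio within a library, which does not depend on library size. The ratio of Tap1 to Tap2 counts per exon length was 2.25 ± 0.321 (SD, n = 4) in VEH scramble and 4.32 ± 0.197 in LPS scramble. It was 1.37 ± 0.456 and 3.53 ± 0.178 with miR-7a, 2.16 ± 0.567 and 3.59 ± 0.747 with miR-29a, and 1.96 ± 0.227 and 3.65 ± 0.230 with miR-146a, vehicle first. The ranges did not overlap in scramble, miR-7a and miR-146a, each with a two-sided exact permutation p of 0.0286, the smallest that 4 against 4 libraries allow. None of the 78 ratio tests passed Benjamini-Hochberg adjustment, which gave 0.117 at best. In VEH miR-7a replicate 1, the library of that group with a low structural share, the ratio of Tap1 to Tap2 was 1.41, that of Psmb9 to Psmb6 0.0305 and that of Psmb8 to Psmb5 0.297.

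Tapbp was at 123, 202, 195 and 190.4 CPM in VEH scramble and at 193, 203, 243 and 221 CPM in LPS scramble (log2 fold change 0.29, SE 0.18, adjusted p = 0.267). With miR-7a it rose from 158, 108, 178 and 173 CPM to 250.4, 308, 471 and 363 CPM (1.13, SE 0.22, adjusted p = 0.00914), and LPS miR-7a was the highest of the 8 groups. With miR-29a it rose from 112, 117, 125 and 133 CPM to 159, 171, 178 and 192 CPM (0.51, SE 0.12, adjusted p = 0.00951). With miR-146a it went from 122, 125, 161 and 153 CPM to 164, 189, 222 and 239 CPM without overlap (0.50, SE 0.15), which was not called (adjusted p = 0.0931).

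Psmb9, an inducible proteasome subunit, was at 20.9, 31.1, 29.4 and 29.7 CPM in VEH scramble and 40.6, 38.6, 45.8 and 37.7 CPM in LPS scramble, and was called higher there (0.57, SE 0.16, adjusted p = 0.0338). That call was lost when any library but VEH scramble replicate 2 was left out, with the adjusted p rising to at most 0.0947 and the log2 fold change staying between 0.42 and 0.63. In the mimic backgrounds the log2 fold change of Psmb9 was 0.62 with miR-7a (adjusted p = 0.162), 0.24 with miR-29a (0.33) and 0.68 with miR-146a (0.0657). Psmb8 was not called, with log2 fold changes of 0.07, 0.45, 0.27 and 0.25 and a level of 89.2 to 175 CPM over all libraries. The overlap of Psmb9 with Tap1 covers 212 bases, so reads there could count for either gene.

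Relative to its constitutive counterpart Psmb6, Psmb9 was higher with LPS in each background without overlap of the libraries. The ratio per exon length went from 0.0265 ± 0.00425 (SD, n = 4) to 0.0567 ± 0.00444 in scramble, from 0.0272 ± 0.00410 to 0.0707 ± 0.0128 in miR-7a, from 0.0345 ± 0.00345 to 0.0631 ± 0.0124 in miR-29a and from 0.0321 ± 0.00291 to 0.0493 ± 0.00321 in miR-146a, each with an exact two-sided permutation p of 0.0286 (0.117 after adjustment over the 78 ratio tests). Psmb6 itself was called lower with LPS in miR-7a (log2 fold change -0.87, adjusted p = 0.0246) and miR-29a (-0.64, adjusted p = 0.0167). Without VEH miR-7a libraries 2, 3 and 4 it was at -0.29 in miR-7a, given with no test. The ratio of Psmb8 to its counterpart Psmb5 went from 0.344 ± 0.0498 to 0.698 ± 0.0384 with miR-7a without overlap (exact permutation p = 0.0286), and overlapped between vehicle and LPS in the 3 other backgrounds. The ratio of Psmb10, the third inducible core subunit, to Psmb7 was 0.768 ± 0.151 in VEH scramble and 0.464 ± 0.0602 in LPS scramble, lower and without overlap (exact permutation p = 0.0286), and it overlapped in the 3 other backgrounds.

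**Figure D3:**
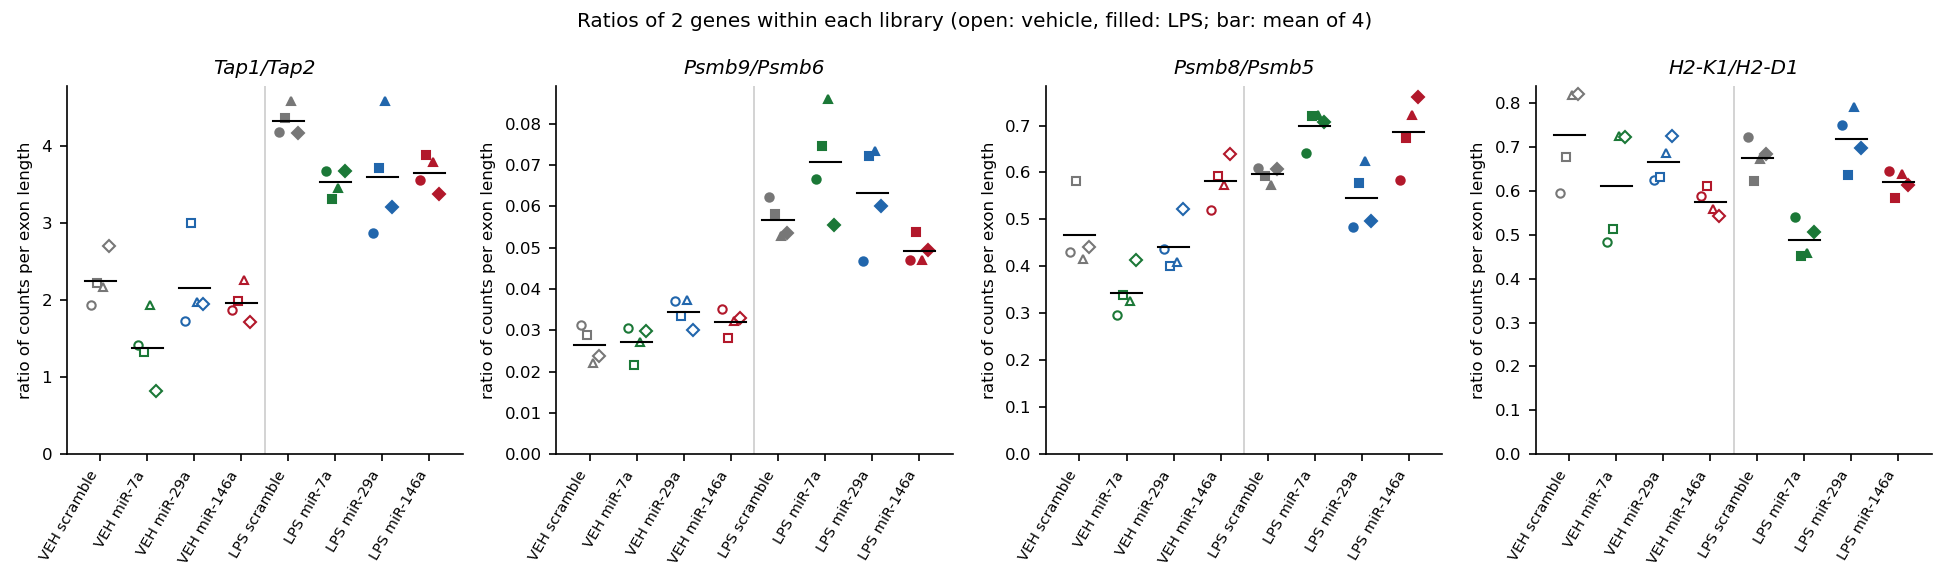
Ratios of 2 genes in counts per exon length (vertical axes, from 0) within each library, for Tap1 to Tap2, Psmb9 to Psmb6, Psmb8 to Psmb5 and H2-K1 to H2-D1, with open symbols for vehicle, filled symbols for LPS and bars at the group means. Psmb9 to Psmb6 lies higher with LPS in all 4 backgrounds, and H2-K1 to H2-D1 is lowest in LPS miR-7a at 0.489.

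Nlrc5 was not called with LPS in any background. It ranged from 85.6 to 192 CPM over the 32 libraries, its log2 fold changes were 0.04, 0.33, 0.06 and 0.06, and the 95% interval in scramble ran from -0.42 to 0.50.

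**Figure D4:**
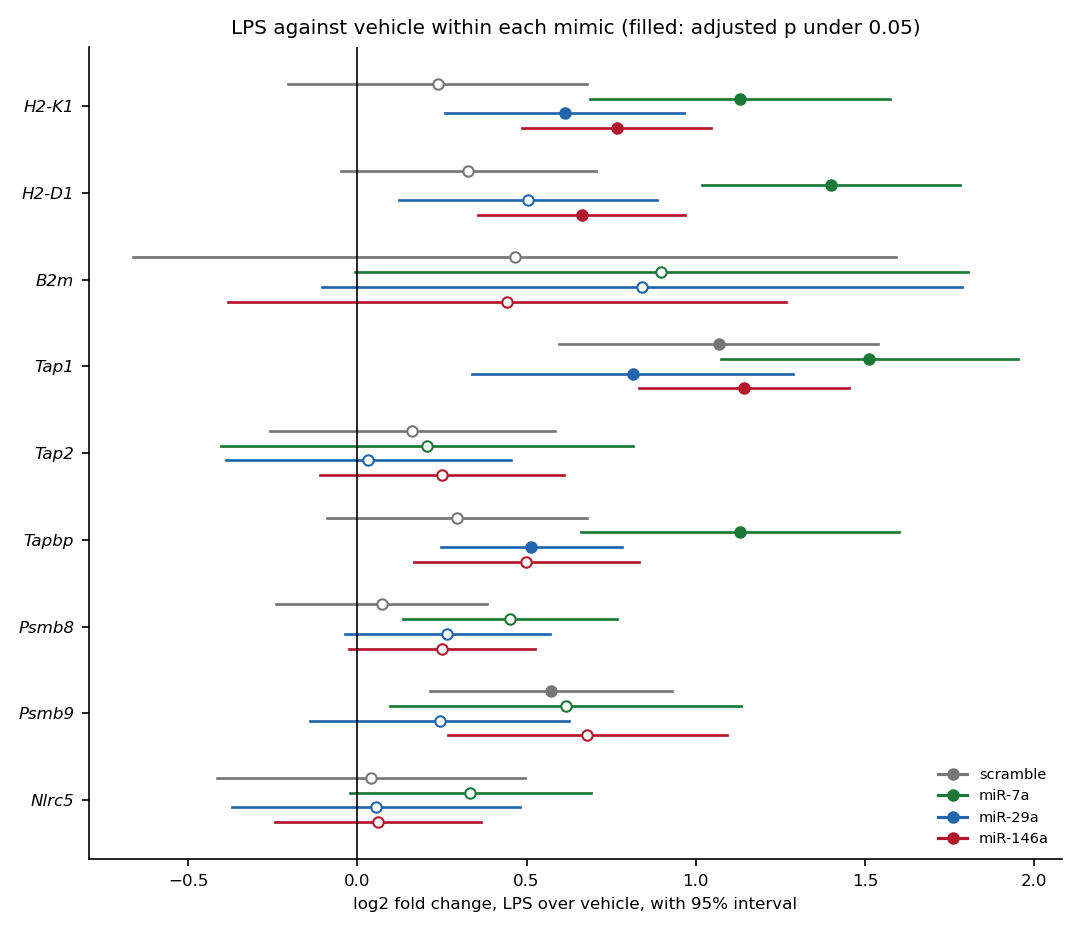
Log2 fold change of LPS over vehicle (horizontal axis) with its 95% interval for 9 members in the 4 backgrounds, filled where the adjusted p was under 0.05. Tap1 is filled in all 4, between 0.81 and 1.51, and H2-M2 is left out because its vehicle groups are at or near 0.

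The miR-7a comparison of LPS with vehicle rests on VEH miR-7a libraries 2, 3 and 4, which had 49.9 to 50.6% of their counts in small structural RNA genes. With those genes left out of the table, the calls of these 4 members stood, with log2 fold changes of 1.13 for H2-K1, 1.40 for H2-D1, 1.51 for Tap1 and 1.13 for Tapbp. With the 3 libraries left out, 1 vehicle library remained, so whether the calls would stand without them could not be tested. The log2 fold changes were then 1.49 for H2-K1, 1.47 for H2-D1, 1.62 for Tap1 and 1.09 for Tapbp.

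Each mimic was then compared with scramble under LPS. By the main test H2-M2 was called higher with miR-7a, and no other member was called with any of the 3 mimics. H2-M2 was 4.73-fold higher in LPS miR-7a than in LPS scramble (log2 fold change 2.24, SE 0.24, adjusted p = 0.00267), without overlap and in 4 of 4 same-numbered pairs. The adjusted p stayed at or below 0.0251 with any 1 library left out. It is 1 call among 10 members, beside 2.7% of all 13143 genes called in either direction. With the stricter minimum posterior of 0.99 H2-M2 left the table, since its LPS miR-7a replicate 1 value has 0.958. Under the simple rule for lost decimals its direction turned, to -0.99 on the log2 scale, so the call holds for the reading as whole counts.

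Other members of the same comparison missed the threshold without a block and passed it with the replicate number as a block. H2-K1, the member with a miR-7a-5p seed match, was lower in LPS miR-7a than in LPS scramble in 4 of 4 pairs without overlap, with a log2 fold change of -0.43 (SE 0.13, adjusted p = 0.102), and with the block it was called lower (-0.44, adjusted p = 0.00563). Tapbp was higher in 4 of 4 pairs without overlap (0.66, SE 0.18, adjusted p = 0.0694), and with the block it was called higher (0.68, adjusted p = 0.00108). The block raised the share of all genes called from 2.7% to 9.32%. H2-D1 lay at 0.04 (95% interval -0.30 to 0.37), so the ratio of H2-K1 to H2-D1 per exon length was 0.489 ± 0.0417 (SD, n = 4) in LPS miR-7a and 0.676 ± 0.0413 in LPS scramble, without overlap (exact permutation p = 0.0286, 0.117 adjusted). The same ratio was 0.719 ± 0.0668 in LPS miR-29a and 0.620 ± 0.0281 in LPS miR-146a. As the 2 genes are closely related, a ratio between them may also depend on how reads were shared out, which was not tested.

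With miR-29a under LPS, limma-voom called none of the members (5 of the 9 other than H2-M2 at an unadjusted p under 0.05, 0 by edgeR's quasi-likelihood test and 0 by DESeq2), where 4.77% of all genes were called. Of all 13406 genes, 2850 had an unadjusted p under 0.05. The 5 members were lower than in LPS scramble, with log2 fold changes of -0.43 for Tap1, -0.42 for H2-D1, -0.36 for Psmb9, -0.34 for H2-K1 and -0.27 for Tapbp. Tapbp and Psmb9 did not overlap between the groups, a description with no share of all genes beside it. H2-M2 did not overlap either (-1.18 on the log2 scale), but it passed the low-count filter through the 4 LPS scramble libraries, as 2 of 4 LPS miR-29a libraries reached its minimum, so no p is given. With the block H2-K1 (-0.36, adjusted p = 0.0245), H2-D1 (-0.44, adjusted p = 0.0138) and Tap1 (-0.42, adjusted p = 0.0143) were called lower, and all genes called went from 4.77% to 10.1%. Nlrc5 was higher in 4 of 4 pairs and was not called (0.26, adjusted p = 0.261).

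With miR-146a under LPS, none was called either (3 at an unadjusted p under 0.05, 0 by edgeR and 0 by DESeq2) beside 2.3% of all genes. Of all 12691 genes, 2201 had an unadjusted p under 0.05. The 3 members were H2-D1 at 0.30, Psmb8 at -0.27 and Psmb9 at -0.31. H2-D1, which holds a miR-146a-5p seed match, was higher in 4 of 4 pairs (adjusted p = 0.251), and with the block it was called higher (0.28, adjusted p = 0.0236), where 10.6% of all genes were called. H2-K1, with the same match, was higher in 4 of 4 pairs (0.17, adjusted p = 0.475), and Tapbp had a log2 fold change of -0.08 (95% interval -0.38 to 0.22).

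**Figure D5:**
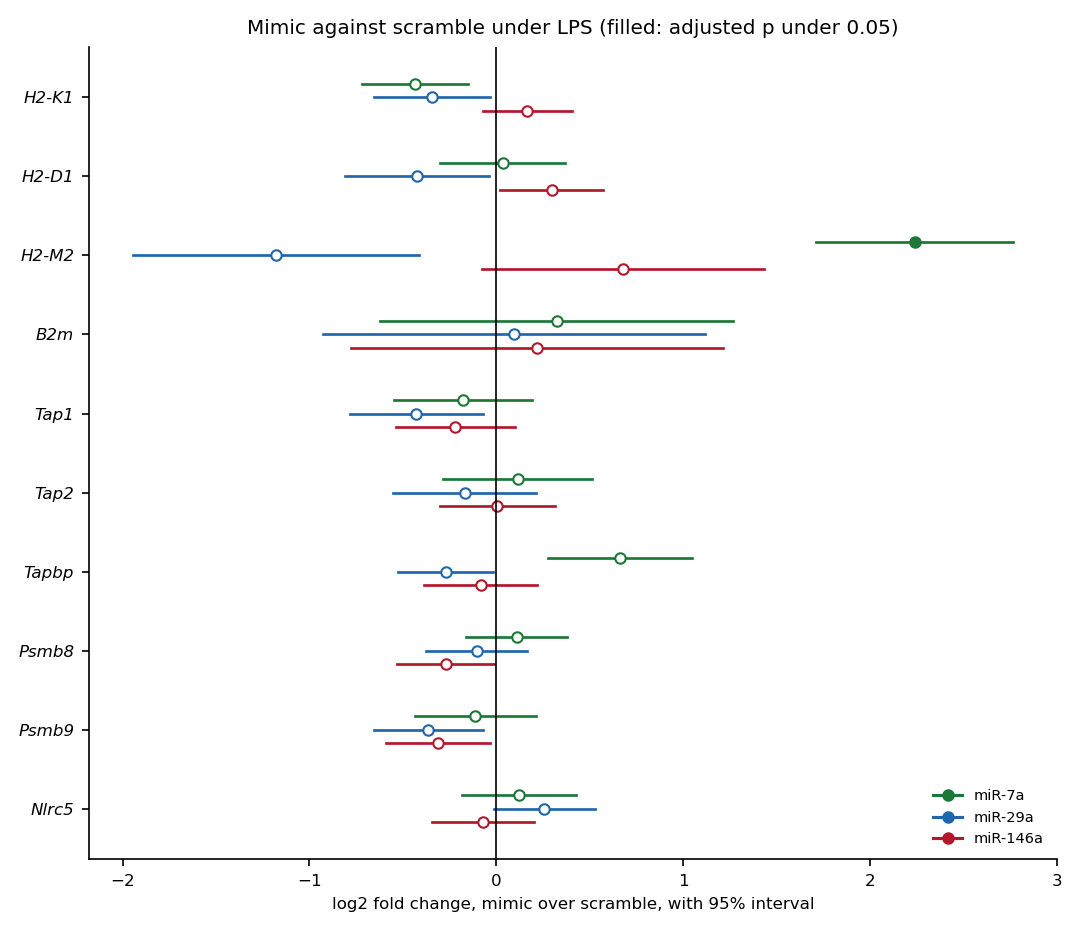
Log2 fold change of each mimic over scramble under LPS (horizontal axis) with its 95% interval, for the 10 members, filled where the adjusted p was under 0.05. H2-M2 in miR-7a, at 2.24, is the filled point, and all points for miR-29a and miR-146a are open.

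In vehicle no member was called for any mimic by the main limma-voom test. For miR-7a, limma-voom called 0 of the 9 tested (3 at an unadjusted p under 0.05, 0 by edgeR, 2 by DESeq2) beside 0.0541% of all 11090 genes, of which 1391 had an unadjusted p under 0.05. H2-K1 was at 185 to 385 CPM against 379 to 702 CPM in VEH scramble (log2 fold change -1.31, SE 0.26, adjusted p = 0.0907), and H2-D1 at 297 to 467 CPM against 559 to 892 CPM without overlap (-1.03, SE 0.19, adjusted p = 0.0878). DESeq2 called both lower (-1.28, adjusted p = 0.00105 and -1.03, adjusted p = 0.000706), and so did limma-voom once small structural RNA genes were left out (adjusted p = 0.0415 and 0.038). In the single VEH miR-7a library with a low structural share, against all VEH scramble libraries, the log2 fold changes were -1.70 and -1.13, given with no test. Tap1 had a log2 fold change of -0.63 (adjusted p = 0.332).

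For miR-29a in vehicle 0 of 9 were called (3 at an unadjusted p under 0.05, 0 by edgeR, 0 by DESeq2) beside 0.00853% of all genes, while 1202 of 11726 genes had an unadjusted p under 0.05. The 3 members were H2-K1 at -0.74, H2-D1 at -0.62 (no overlap) and Tapbp at -0.51. For miR-146a in vehicle 0 of 9 were called (1 at an unadjusted p under 0.05, 0 by edgeR, 1 by DESeq2) beside 1.94%, while 2975 of 11841 genes had an unadjusted p under 0.05. The lowest p of a member belonged to Psmb8 at -0.46 (SE 0.15, adjusted p = 0.0907), whose groups did not overlap. The 3 comparisons share the VEH scramble libraries, of which replicate 1 was low for H2-K1, Tapbp and Psmb9.

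The mimics were also compared with one another under LPS. LPS miR-7a exceeded LPS miR-29a in Tapbp (log2 fold change 0.94, SE 0.18, adjusted p = 0.0155), 1 of the 9 members other than H2-M2 beside 3.58% of all genes, and its groups did not overlap. The Tapbp call was lost without LPS miR-7a replicate 4 or LPS miR-29a replicate 1 (adjusted p at most 0.0562), and under the simple rule for lost decimals. H2-M2 did not overlap between these groups either, at 5.71 to 8.98 CPM against 0.304 to 1.06 CPM, and as 1 of 4 LPS miR-29a libraries reached the filter's minimum, it passed through LPS miR-7a and has no p here. Compared with LPS miR-146a, LPS miR-7a was higher in H2-M2 (1.55, SE 0.32, adjusted p = 0.0167) and Tapbp (0.73, SE 0.19, adjusted p = 0.0457) and lower in H2-K1 (-0.61, SE 0.14, adjusted p = 0.0272), 3 of 10 members beside 6.21%. Under the simple rule for lost decimals H2-M2 turned to -1.69, and none of the 3 was called. None of the 3 overlapped, yet the H2-K1 call was lost without any of 7 libraries (all but LPS miR-7a replicate 4), the Tapbp call without any of 6 (all but LPS miR-7a replicate 1 and LPS miR-146a replicate 4) and the H2-M2 call without LPS miR-146a replicate 1 or 2, with adjusted p-values up to 0.078, 0.13 and 0.0608. With the block Psmb8 was also called higher (0.38, adjusted p = 0.0211, against 0.144 without), where 20.9% of all genes were called.

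LPS miR-29a was lower than LPS miR-146a in both classical heavy chain genes, H2-K1 (-0.53, SE 0.15, adjusted p = 0.0397) and H2-D1 (-0.74, SE 0.18, adjusted p = 0.0203), 2 of the 9 members other than H2-M2 beside 12% of all genes (1512 of 12608) called, and without overlap in each. These calls were close to the threshold: H2-K1 lost its call without any of 7 libraries (all but LPS miR-29a replicate 4) and by edgeR, and H2-D1 without LPS miR-29a replicates 1 or 3 or LPS miR-146a replicates 2, 3 or 4, with adjusted p-values up to 0.107 and 0.0622. Both calls were lost under the simple rule for lost decimals. H2-M2, at 0.304 to 1.06 CPM against 1.42 to 3.34 CPM, did not overlap either, and it has no p here since it passed the filter through the LPS miR-146a libraries. With the block Nlrc5 was called higher in LPS miR-29a (0.32, adjusted p = 0.0311, against 0.196 without), where 25.9% of all genes were called.

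Whether a mimic changed the response to LPS was tested as an interaction over 16 libraries. No member was called for miR-7a (4 at an unadjusted p under 0.05, 0 by edgeR, 1 by DESeq2, beside 0.0244% of all genes), miR-29a (0 at an unadjusted p under 0.05, 0 by edgeR, 0 by DESeq2, beside 0.016%) or miR-146a (1 at an unadjusted p under 0.05, 0 by edgeR, 0 by DESeq2, beside 0%). In the same order, 690 of 12315, 809 of 12504 and 1382 of 12541 genes had an unadjusted p under 0.05. With miR-7a the largest difference was that of H2-D1, whose LPS response exceeded that in scramble by 1.103 on the log2 scale (SE 0.24, adjusted p = 0.188, and 0.0126 by DESeq2), followed by H2-K1 (0.93, SE 0.29, adjusted p = 0.562) and Tapbp (0.88, SE 0.28, adjusted p = 0.562). All 3 rest on the VEH miR-7a libraries with 49.9 to 50.6% structural RNA counts. Without these libraries 1 library stood for VEH miR-7a and the differences were 1.14, 1.24 and 0.80, given with no test.

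The order of group means differed between members. H2-K1 was highest in LPS miR-146a (784 ± 61.0 CPM, SD, n = 4) and LPS scramble (710.1 ± 54.6 CPM) and lowest in VEH miR-7a (253 ± 92.0 CPM), and the ranges of each pair of neighbours in that order overlapped. H2-D1 was likewise highest in LPS miR-146a (1112 ± 113 CPM) and lowest in VEH miR-7a (359 ± 74.6 CPM). For H2-M2, with the LPS miR-7a values read as whole counts, the order was LPS miR-7a (6.91 ± 1.52 CPM), LPS miR-146a (2.34 ± 0.823 CPM), LPS scramble (1.39 ± 0.0653 CPM) and LPS miR-29a (0.621 ± 0.324 CPM), where LPS miR-146a and LPS scramble overlapped and the other neighbours did not. Under the simple rule LPS miR-7a lay below LPS scramble (-0.99) and LPS miR-146a (-1.69 on the log2 scale). Tapbp (348 ± 94.0 CPM) and Psmb8 (148 ± 18.7 CPM) were highest in LPS miR-7a, Tap1 (165 ± 25.9 CPM) and Psmb9 (40.7 ± 3.63 CPM) in LPS scramble, and Nlrc5 (139 ± 19.5 CPM) in LPS miR-29a.

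Other genes of the pathway were examined in lists that hold no member. Of 22 other class I and class I-like heavy chain genes in the table, 9 to 12 could be tested for LPS against vehicle, and 5 of 10, 4 of 9, 6 of 12 and 5 of 10 were called higher in the scramble, miR-7a, miR-29a and miR-146a backgrounds, beside the same backgrounds of all genes as above. The single gene called lower was Cd1d1 in miR-29a, and that call was lost without a filter on low counts and without VEH miR-29a replicate 2 or LPS miR-29a replicate 1, 2 or 3. H2-T23, the gene of the nonclassical Qa-1 molecule, and H2-T22 were called higher in all 4, H2-T23 by 1.28, 1.83, 1.27 and 1.25 on the log2 scale. H2-T24 was also called higher in all 4, at 2.502, 2.54, 2.35 and 2.04, but its direction depends on how lost decimals were restored, and under the simple rule it turned to -7.50, -2.21, -6.67 and -7.69. Under that rule 3 of 10, 3 of 9, 2 of 12 and 3 of 10 genes were called higher and 4, 1, 4 and 4 lower. With library totals in place of TMM all 9 tested were called higher in miR-7a. One fit over all 8 groups called 3 of 9 higher in scramble, miR-29a and miR-146a, a minimum posterior of 0.99 called 2 of 4 higher in miR-7a, and without a filter on low counts 7 of 16 were called higher and 3 lower in miR-7a. With VEH miR-7a libraries 2, 3 and 4 left out, H2-T23 was at 2.01 and H2-T22 at 1.46 in miR-7a, given with no test. Class I genes are related in sequence, and how reads were split among them was not tested.

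Among the transcription regulators of class I genes, Irf9 and Stat2, which carry interferon signals, were called higher with LPS in each background, where 9.38%, 2.76%, 13.4% and 2.83% of all genes were called higher, with Irf9 at log2 fold changes of 1.46, 1.63, 1.18 and 1.22 and Stat2 at 0.84, 1.24, 1.41 and 0.81. Most of the regulators tested were not called in any one background. With VEH miR-7a libraries 2, 3 and 4 left out, Irf9 was at 1.74 and Stat2 at 1.17 in miR-7a, given with no test. In miR-29a Rela was called lower (-0.84). Under LPS, Stat2 was higher with miR-29a than with scramble (1.37, adjusted p = 0.0022). Without a block none of the 9 members other than H2-M2 was called there, and with the block H2-K1, H2-D1 and Tap1 were called lower.

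The remaining lists are set beside the share of all genes called in either direction with LPS, which was 17.6% in scramble, 6.84% in miR-7a, 26.5% in miR-29a and 4.42% in miR-146a, and counts near those shares are no result about a list. Of 9 other peptide loading and trimming genes, 1 rose (Erap1, 0.46) and 1 fell (Sec61b, -0.80) with LPS in scramble, 3 rose in miR-29a and none was called in miR-7a or miR-146a. Tapbpl, a tapasin-related chaperone, was higher in LPS miR-7a than in LPS scramble (1.45, SE 0.24, adjusted p = 0.0136), LPS miR-29a (1.20, adjusted p = 0.0117) and LPS miR-146a (1.32, adjusted p = 0.0129). In these comparisons 1, 1 and 2 of the 9 genes were called, beside 2.7%, 3.58% and 6.21% of all genes. In vehicle Tapbpl was also higher with miR-7a than with scramble (1.06, SE 0.38) but not called (limma-voom adjusted p = 0.296). Its miR-7a interaction was 0.41 (limma-voom adjusted p = 0.948). Tapbp was also higher in LPS miR-7a in the same comparisons, and without a block it passed the test in the last 2 only. Of 14 constitutive proteasome core subunits none was called with LPS in scramble or miR-146a. In miR-29a 2 were higher and 1 lower, and in miR-7a 2 were lower (Psmb5 and Psmb6). The miR-7a calls rest on VEH miR-7a libraries 2, 3 and 4, without which 1 vehicle library remained and no test is given. Of 6 immunoproteasome and activator genes 2 were called, Psme2 (0.68) and Psme4 (0.52), both higher in miR-29a. Of 6 cytosolic peptidases in the table Nrd1 was higher in scramble (0.48) and miR-29a (0.37), and no other was called with LPS. Of 3 testable class II genes, Cd74, the invariant chain, was lower with LPS in scramble (-1.31), miR-7a (-1.18) and miR-29a (-1.08). Without VEH miR-7a libraries 2, 3 and 4 it was at -1.16 in miR-7a, given with no test.

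Over the 32 libraries, the genes whose log2 CPM most resembled the mean standardised profile of the 10 members were H2-T22 (Pearson r = 0.902), Pstpip1 (0.875), Bst2 (0.868), H2-T23 (0.862) and Mov10 (0.860), out of 12514 genes compared. These are descriptions, since the libraries share group means and replicate numbers. Within the members, Tap1 (0.913), Tapbp (0.859) and Psmb9 (0.848) lay closest to that profile, which contains them, and B2m (0.453), Nlrc5 (0.472) and Tap2 (0.561) were farthest from it.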

How the data were processed

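Total RNA from BV-2 cells was extracted with TRIzol, depleted of ribosomal RNA and made into CORALL libraries. Per the labels, 4 libraries made each of 8 groups. The authors used nf-core rnaseq and GRCm38, and deposited 1 table of estimated counts per gene whose decimal marks were lost. Per the submitters' processing notes limma and edgeR were used. Here each value's decimals (0 to 3) were restored with a model that weighs the number of decimals (prior shares 0.01, 0.09 and 0.9 for 1, 2 and 3 decimals) and the gene's level in other libraries (t density, 7 degrees of freedom). Values with a posterior under 0.9 were uncertain (0.915% of 590874 values above 0) and left their gene out of a comparison. Of 306 member values above 0, 159 were given lost decimals and none was uncertain. As the estimated counts are kept on their fractional scale, the main test was limma-voom (limma 3.58.1, edgeR 4.0.16 for filterByExpr and TMM, R 4.3.3) per pair of groups, 16 libraries for interactions, adjusted over all genes tested at 0.05. edgeR's quasi-likelihood test and DESeq2 1.42.0 used rounded counts. Ratios were tested by exact permutation with SciPy 1.17.1. CPM were computed from the restored counts.

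All 10 members were named. From each pathway list up to 4 called genes per comparison with the smallest adjusted p were named, plus Psmb5, Psmb6 and Psmb10, and 5 genes for likeness. One gene of the regulator list is not reported here, so no count over that list is given. Cd1d1 falls outside that rule and was named after its values were seen. The members and lists were chosen with earlier results of these data known. The authors' sample columns were all used. The study describes its replicates as independent experiments, and p-values measure the spread between them. Same-numbered libraries deviated together (every pair's correlation over 0.1) in 8 of 13 comparisons: each mimic against scramble under LPS, LPS against vehicle in scramble and miR-29a, VEH miR-29a against VEH scramble, and LPS miR-146a against LPS miR-7a and LPS miR-29a. In those a blocked value is printed where it changes a call. In the other comparisons the mean same-number correlation was 0.0798 to 0.297, against -0.0992 to -0.0272 for unlike numbers, so the numbers carried some pairing there too. The pipeline was tested on simulated data. No pair of libraries held identical values. Counting error alone gives the floor of 3 counts, which was 0.132 to 3.72 CPM per library.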

Additional observations from a re-analysis of the deposited data

Results flagged for a closer look

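Among 78 groups of 4 libraries with a spread above 0, 7 had a library whose gap to its nearest neighbour, as a share of the group's range, exceeded Dixon's critical value for 4 samples, where chance gives about 1 in 20. H2-K1 in VEH scramble replicate 1 was at 379 CPM against 689 to 702 CPM in the other 3 libraries. Tapbp in the same library was at 123 CPM against 190.4 to 202 CPM, and Psmb9 at 20.9 CPM against 29.4 to 31.1 CPM, so 3 members were low together in this library, whose total was 6208770 counts and whose share of structural RNA was 6.72%. Tap1 in VEH miR-146a replicate 1 was at 54.6 CPM against 63.5 to 65.0 CPM. Nlrc5 in LPS miR-29a replicate 2 was at 168 CPM against 126 to 131 CPM. H2-M2 was at 0.173 CPM in VEH miR-7a replicate 1 and at 0.239 CPM in VEH miR-29a replicate 1, each from 1 count, with no count in the other 3 libraries of either group. Both H2-M2 flags were fixed in advance, since a single count among zeros makes the gap the whole range. What sets these libraries apart was not tested.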

How the results depend on the processing

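The members called were counted without H2-M2 wherever it passed the filter through 1 of the groups, and were then 2, 4, 3 and 3 for LPS against vehicle in scramble, miR-7a, miR-29a and miR-146a. Counts that changed by over 1.5 times are given by alternative. With DESeq2 the count was 5 for LPS against vehicle in miR-146a, 3 for LPS miR-7a against LPS scramble, 2 for VEH miR-7a and 1 for VEH miR-146a against VEH scramble, and 1 for the miR-7a interaction. With edgeR it was 1 for LPS miR-29a against LPS miR-146a, where H2-K1 was lost. Without a filter on low counts it was 1 for LPS against vehicle in scramble, 3 for LPS miR-7a against LPS scramble and 2 for VEH miR-7a against VEH scramble. With library totals in place of TMM it was 4 in scramble, 9 in miR-7a, 5 in miR-29a and 5 in miR-146a for LPS against vehicle, 2 for VEH miR-7a against VEH scramble and 1 for LPS miR-29a against LPS miR-146a, and this scaling moved the median of all genes to 0.22, 0.82, 0.18, 0.077, -0.53 and 0.12 in these comparisons. One fit over all 8 groups gave 2 for LPS miR-7a against LPS scramble, 2 for VEH miR-7a, 1 for VEH miR-29a and 1 for VEH miR-146a against VEH scramble. Under the simple rule for lost decimals it was 0 for LPS miR-7a against LPS scramble, LPS miR-29a and LPS miR-146a and for LPS miR-29a against LPS miR-146a, and H2-M2 reversed to -0.99 against LPS scramble and -1.69 against LPS miR-146a, since that rule reads its 4 LPS miR-7a values with 1 decimal. At a minimum posterior of 0.99 it was 0 for LPS miR-7a against LPS scramble, where H2-M2 left the table. Leaving out structural RNA genes gave 2 for VEH miR-7a against VEH scramble. Leaving out VEH miR-7a libraries 2, 3 and 4 left 1 vehicle library, so no count is given for it. Both alternatives were chosen after seeing the data.

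With the replicate block, 5 members were called for LPS against vehicle in miR-29a, 3 for LPS miR-7a and 3 for LPS miR-29a against LPS scramble, 1 for LPS miR-146a against LPS scramble, 2 for VEH miR-7a against VEH scramble, 1 for the miR-7a interaction and 2 for LPS miR-7a against LPS miR-29a, where the share of all genes called was 37.4% against 26.5% without the block, 9.32% against 2.7%, 10.1% against 4.77%, 10.6% against 2.3%, 2.89% against 0.0541%, 0.284% against 0.0244% and 9.18% against 3.58%. Where not every same-numbered pair correlated over 0.1, the block also called B2m (0.89) and Psmb8 (0.45) for LPS in miR-7a and Tapbp (0.53) for LPS in miR-146a. Likewise it called H2-K1 (-1.28) and H2-D1 (-1.02) in VEH miR-7a and H2-D1 (0.48) in LPS miR-7a against LPS miR-29a. For the miR-7a interaction, where pairing was not examined, it called H2-D1 (1.09). Where every same-numbered pair correlated over 0.1, the block changed the calls given with the results, of B2m (0.51 and 0.80), H2-D1 (0.50, -0.44 and 0.28), H2-K1 (-0.44 and -0.36), Tapbp (0.68), Tap1 (-0.42), Psmb8 (0.38) and Nlrc5 (0.32). The block changed no further call of a member.

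Leaving out 1 library at a time gave, for LPS against vehicle, 1 to 2 members called in scramble, 4 in miR-7a, 2 to 4 in miR-29a and 2 to 3 in miR-146a. Against LPS scramble it gave 1 to 2 for miR-7a, 0 to 1 for miR-29a and 0 for miR-146a, and against VEH scramble 0 to 2, 0 and 0 to 2. Between mimics under LPS it gave 0 to 1 for miR-7a against miR-29a, 0 to 2 for miR-7a against miR-146a and 0 to 2 for miR-29a against miR-146a, and 0 to 1 for the miR-7a interaction. The causes of these changes were not tested. Depth limits H2-M2, whose vehicle groups hold 0 or 1 count.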
